A study of Mus musculus with 8 samples.

Results

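The platelet-derived growth factor (PDGF) family of the mouse consists of the ligand genes *Pdgfa*, *Pdgfb*, *Pdgfc* and *Pdgfd* and the receptor genes *Pdgfra* and *Pdgfrb*. These 6 genes were taken by symbol, as the members of the family, with earlier results of these data known, and all 6 are among the 15111 genes of the deposited table. RNA of primary dermal fibroblasts from adult mice was sequenced, with 4 libraries from control mice and 4 from TGFβ1FKO mice. Both genotypes carried floxed alleles of *Tgfb1* (Tgfb1fl/fl) and both were fed tamoxifen, whereas Col1a2-CreERT, a tamoxifen-inducible Cre recombinase under the promoter of a collagen I gene, was present only in TGFβ1FKO mice. Before RNA extraction the cells of both genotypes had been kept for 72 h on fibronectin in a serum replacement medium. Neither the labels nor the methods of the study state that each library comes from a separate mouse, so the p-values measure the spread between these libraries, which may be technical.

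PDGFs are secreted as dimers that bind receptor tyrosine kinases on mesenchymal cells and signal to proliferation and migration. PDGF-A and PDGF-B are cleaved inside the cell before secretion, whereas PDGF-C and PDGF-D are released in a latent form that proteases activate outside it. In skin, PDGFRα marks the dermal fibroblast lineage, PDGFRβ is found on fibroblasts and on mural cells (pericytes and vascular smooth muscle), and PDGF-B from endothelial cells is known for recruiting mural cells to new vessels.

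*Pdgfb* was the PDGF gene with the lowest RNA level in these cultures and the only one of the 6 whose control and TGFβ1FKO libraries did not overlap. Its mean in TGFβ1FKO fibroblasts was 14.7% of the control mean, but the adjusted p-value missed the threshold. The other 5 genes differed between the genotypes by a log2 fold change of at most 0.11 in either direction, and the order of the 4 ligands was the same in all 8 libraries. None of the 6 genes passed both thresholds of the test, which was limma's test on log2(normalised count + 1) over all 15111 genes, with 0.05 as the limit of the adjusted p-value and 0.6 as the least absolute log2 fold change. Of all genes, 0.086% passed it, and 0.0794% passed it with a lower level in TGFβ1FKO fibroblasts. Of the 6 genes, 1 had an unadjusted p-value under 0.05, *Pdgfb*, against 7.46% of all genes, or 3.87% when only lower genes are counted. The count tests on the recovered reads called 0 of the 6 genes with edgeR (0.132% of all genes) and 1 of the 6, again *Pdgfb*, with DESeq2 tested against a fold change of 0 (0.371% of all genes).

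Between 16988998 and 23071528 reads per library were recovered on the genes of the table. A normalised count is the number of reads of a gene divided by the size factor of its library, with the 0.5 that the deposited values contain subtracted. *Tgfb1*, the deleted gene, averaged 1374 ± 85.4 (SD, n = 4) in control fibroblasts. The TGFβ1FKO fibroblasts averaged 277.3 ± 42.5 (SD, n = 4), which was 20.2% of the control mean, without overlap of the groups (log2 fold change -2.31, adjusted p = 1.53e-07, limma with Benjamini-Hochberg adjustment). Fewer cells that express a gene and less RNA per cell cannot be told apart in RNA of whole cultures. The 11 fibroblast markers, which include *Col1a1*, *Dcn* and *Thy1*, were all in the table, and none of them had an unadjusted p-value under 0.05.

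*Pdgfb* (ENSMUSG00000000489), which encodes the ligand that binds both PDGF receptors, lies on the minus strand of chromosome 15 of GRCm38 from 79995874 to 80014977. In control libraries 1 to 4 its normalised count was 18.9, 41.4, 52.1 and 12.8, and in TGFβ1FKO libraries 1 to 4 it was 7.10, 4.14, 4.98 and 2.22. Control libraries 2 and 3 were high and control library 4 was the lowest control, but every control lay above every TGFβ1FKO library. Among all genes of the table, 2.1% were lower in TGFβ1FKO libraries without overlap of the groups.

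Control fibroblasts averaged 31.3 ± 18.5 (SD, n = 4) normalised counts of *Pdgfb*, against 4.61 ± 2.02 (SD, n = 4) for TGFβ1FKO fibroblasts. The log2 fold change was -2.40 (standard error 0.46) with a 95% interval from -3.40 to -1.40, which is a TGFβ1FKO level of 0.0949 to 0.378 times the control level on the scale of log2(normalised count + 1). The adjusted p-value was 0.103 (limma with Benjamini-Hochberg adjustment), above the threshold of 0.05. The two-sided exact permutation test over the 8 libraries gave p = 0.0286, which no split of 4 against 4 can go below. Spread within a genotype was wide, with a coefficient of variation of 59.1% among controls and 43.9% among TGFβ1FKO libraries. Without control library 4 the log2 fold change was -2.74 and the gene was called (adjusted p = 0.0294, limma).

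These values rest on few reads. The 4 control libraries held 22, 39, 47 and 13 reads of *Pdgfb*, 121 in all, and the 4 TGFβ1FKO libraries held 7, 4, 6 and 2, which is 19 in all. In the adjacent libraries of the 2 groups the 95% Poisson intervals overlapped, from 6.92 to 22.2 reads for the 13 reads of control library 4 and from 2.81 to 14.4 for the 7 reads of TGFβ1FKO library 1. TGFβ1FKO library 4, with 2 reads, lay under the floor of 3 reads. Intervals and floor cover counting error only. By its mean over the 8 libraries *Pdgfb* stood above only 14.4% of the genes in the table. Its locus contains *Mir7213* and overlaps the antisense gene *Gm41361*, but neither shares exonic bases with *Pdgfb*.

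*Pdgfa* (ENSMUSG00000025856), whose product as a homodimer binds PDGFRα and not PDGFRβ, lies on the minus strand of chromosome 5 from 138976014 to 138997370. Its normalised count was 332.9, 321.9, 323.8 and 290.4 in control libraries 1 to 4 and 295.0, 297.2, 311.4 and 273.7 in TGFβ1FKO libraries 1 to 4. Control library 4 lay within the range of the TGFβ1FKO libraries, and the other 3 controls lay above all of them. The means were 317.3 ± 18.6 (SD, n = 4) and 294.3 ± 15.6 (SD, n = 4), with a log2 fold change of -0.11 and a 95% interval from -0.29 to 0.07 (adjusted p = 0.801, limma). *Pdgfa* shares 813 exonic bases with the antisense gene *6330403L08Rik*. In these libraries without strand information, reads from the shared bases cannot be assigned to either gene. For *6330403L08Rik* itself, controls averaged 88.5 ± 12.2 (SD, n = 4) normalised counts and TGFβ1FKO fibroblasts 96.5 ± 13.6 (SD, n = 4).

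*Pdgfc* (ENSMUSG00000028019), which encodes a latent ligand with a CUB domain, lies on the plus strand of chromosome 3 from 81036416 to 81214040. Its normalised count was 861.1, 746.9, 775.1 and 655.8 in control libraries 1 to 4 and 819.0, 800.5, 771.4 and 809.9 in TGFβ1FKO libraries 1 to 4. All 4 TGFβ1FKO libraries lay inside the range of the controls, which spread wider. The log2 fold change was 0.08 with a 95% interval from -0.09 to 0.25 (adjusted p = 0.839, limma).

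*Pdgfd* (ENSMUSG00000032006), the gene of the other CUB-domain ligand, which acts mainly through PDGFRβ, lies on the plus strand of chromosome 9 from 6168584 to 6378850. Its normalised count was 1062, 941.4, 927.0 and 816.8 in control libraries 1 to 4 and 978.1, 894.8, 1126 and 904.1 in TGFβ1FKO libraries 1 to 4. The groups overlapped, with the lowest value in control library 4 and the highest in TGFβ1FKO library 3. The log2 fold change was 0.06 with a 95% interval from -0.14 to 0.25 (adjusted p = 0.913, limma), and it turned to a value just below 0 when either of these libraries was left out.

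**Figure D1:**
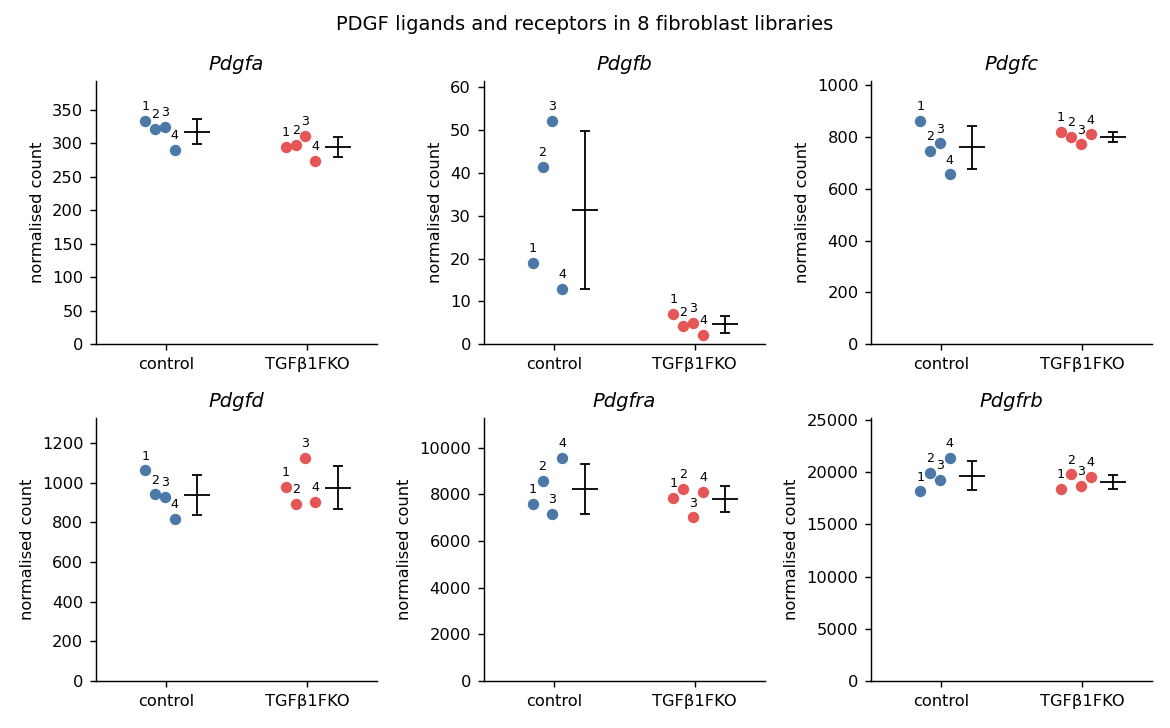
Normalised counts of the 6 PDGF genes in each library, with 1 panel per gene, points for the 4 control and the 4 TGFβ1FKO libraries, and the mean with its SD for each genotype. The genotypes are apart in the panel of *Pdgfb*, where controls range from 12.8 to 52.1 and TGFβ1FKO libraries from 2.22 to 7.10, and overlap in the other 5 panels.

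To place *Pdgfb* among the ligands, normalised counts were divided by the length of the union of annotated exons of each gene in kilobases. By this level per kilobase *Pdgfd* was highest, with 297 in control and 309.4 in TGFβ1FKO fibroblasts, followed by *Pdgfc* with 149.3 and 157.2 and by *Pdgfa* with 101.7 and 94.4. The level of *Pdgfb* was 7.53 ± 4.45 (SD, n = 4) for controls and 1.11 ± 0.486 (SD, n = 4) for TGFβ1FKO fibroblasts. Each of the 8 libraries gave the order *Pdgfd*, *Pdgfc*, *Pdgfa*, *Pdgfb*, and the ranges of neighbouring ligands over the 8 libraries did not overlap. The level per kilobase of *Pdgfa* was 8.29 to 30.2 times that of *Pdgfb* in control libraries and 55.5 to 95.7 times in TGFβ1FKO libraries 1 to 3. No ratio is given for TGFβ1FKO library 4, which held 2 reads of *Pdgfb*.

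As a share of the summed level per kilobase of the 4 ligands, *Pdgfb* made up 0.737%, 1.78%, 2.23% and 0.638% in control libraries 1 to 4. In TGFβ1FKO libraries 1 to 4 its share was 0.301%, 0.185%, 0.196% and 0.0997%. Every share in TGFβ1FKO libraries was below every share in controls, and the means differed by -1.15 percentage points (exact permutation test, p = 0.0286, again the lower limit). *Pdgfd* held the largest share, with a mean of 53.4% in control and 54.9% in TGFβ1FKO fibroblasts (exact permutation test, p = 0.343). For *Pdgfc* the shares were 26.8% and 28.1% (exact permutation test, p = 0.314). The share of *Pdgfa* was 18.4% in control and 16.8% in TGFβ1FKO fibroblasts (exact permutation test, p = 0.0571). The sum of the 4 ligand levels per kilobase was 555.6 ± 54.8 (SD, n = 4) for controls and 562.1 ± 35.1 (SD, n = 4) for TGFβ1FKO fibroblasts (exact permutation test, p = 0.857). The 4 permutation tests of the shares are not independent, since the shares of a library add up to a whole, and their p-values were not adjusted.

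**Figure D2:**
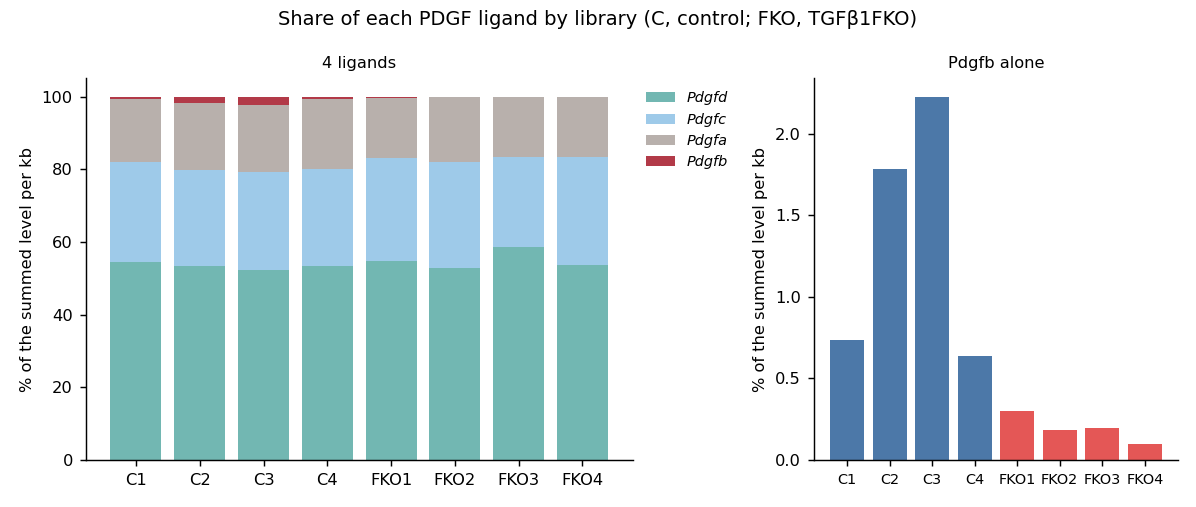
Share of each PDGF ligand in the summed level per kilobase of the 4 ligands, in percent, for each of the 8 libraries (C, control, and FKO, TGFβ1FKO), with all ligands stacked on the left and *Pdgfb* alone on its own axis on the right. *Pdgfd*, *Pdgfc* and *Pdgfa* fill nearly the whole level in every library, and *Pdgfb* reaches at most 2.23% in a control and at most 0.301% in a TGFβ1FKO library.

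Both receptor genes were among the more abundant transcripts of these cells. *Pdgfra* (ENSMUSG00000029231), on the plus strand of chromosome 5 from 75152292 to 75198215, had normalised counts of 7577, 8561, 7153 and 9556 in control libraries 1 to 4 and of 7845, 8231, 7005 and 8089 in TGFβ1FKO libraries 1 to 4. The groups overlapped, and control library 4 was the highest of all 8. The log2 fold change was -0.07 with a 95% interval from -0.25 to 0.12 (adjusted p = 0.885, limma), and without control library 4 it was 0.01. By mean normalised count *Pdgfra* stood above 97.9% of the genes in the table.

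*Pdgfrb* (ENSMUSG00000024620), on the plus strand of chromosome 18 from 61045150 to 61085061, had normalised counts of 18146, 19934, 19251 and 21362 in control libraries 1 to 4. The TGFβ1FKO libraries 1 to 4 had 18396, 19774, 18639 and 19515. These all lay inside the range of the controls, of which library 4 was again the highest. The log2 fold change was -0.04 with a 95% interval from -0.18 to 0.09 (adjusted p = 0.908, limma), and the gene stood above 99.5% of the table by mean normalised count.

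Per kilobase, *Pdgfrb* had a mean level of 3591 in control and 3483 in TGFβ1FKO fibroblasts, and *Pdgfra* of 819 and 777. The level of *Pdgfrb* was 4.41 ± 0.36 (SD, n = 4) times that of *Pdgfra* in control and 4.49 ± 0.26 (SD, n = 4) times in TGFβ1FKO fibroblasts, with 4.09 to 4.92 times over the single libraries. The difference of the log2 ratio of *Pdgfra* to *Pdgfrb* between the genotypes was -0.03, below the spread between libraries (two-sided exact permutation test, p = 0.657), and its sign turned without control library 4 or without TGFβ1FKO library 3. *Pdgfra* shares exonic bases with the antisense genes *Gm42802* and *Gm42803* and with *Mir7025*, and *Pdgfc* with the antisense gene *Gm16000*. None of these was analysed here, and *Ddi1*, which lies within *Pdgfd* on the other strand, shares no exonic bases with it.

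The VEGF ligands and the other receptor tyrosine kinases related to the PDGF receptors gave a scale for these levels. Per kilobase and averaged over the 8 libraries, *Pdgfrb* was highest, and *Vegfd* followed with 1250. *Pdgfra*, with 798, overlapped with *Vegfb*, with 688, and *Vegfa* had 503. *Pdgfd*, with 303, lay below *Vegfa* in all libraries. *Pdgfc* had a mean of 153 and overlapped with *Vegfc*, which had 142, whereas *Pdgfa*, with 98.0, lay below both without overlap. At the lower end stood *Csf1r* with 19.9, *Pgf* with 16.9, *Kdr* with 14.98, *Flt1* with 13.4 and *Flt4* with 11.6, whose ranges overlapped from one to the next.

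*Pdgfb* had the lowest mean of these genes, 4.32. However, its highest control library, at 12.5, reached into the ranges of *Flt4*, *Flt1*, *Kdr* and *Pgf*. Control library 2, at 9.96, also reached into the range of *Flt4*. In TGFβ1FKO libraries alone the maximum of *Pdgfb*, 1.71, lay below the lowest library of every other gene in the comparison. Of the 9 relatives in the table, 0 were called in limma, edgeR or DESeq2 and 1 had an unadjusted p-value under 0.05, against 7.46% of all genes. This was *Pgf*, which encodes placental growth factor, with control libraries at 61.0 ± 24.2 (SD, n = 4) and TGFβ1FKO libraries at 36.8 ± 7.78 (SD, n = 4) normalised counts (log2 fold change -0.64, adjusted p = 0.658, limma). Its groups overlapped. *Kit* and *Flt3* were not analysed here. *Pdgfrl*, which encodes a receptor-like protein without a kinase domain and was added after its values had been seen, had a mean of 180 per kilobase and overlapped with *Pdgfc*.

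**Figure D3:**
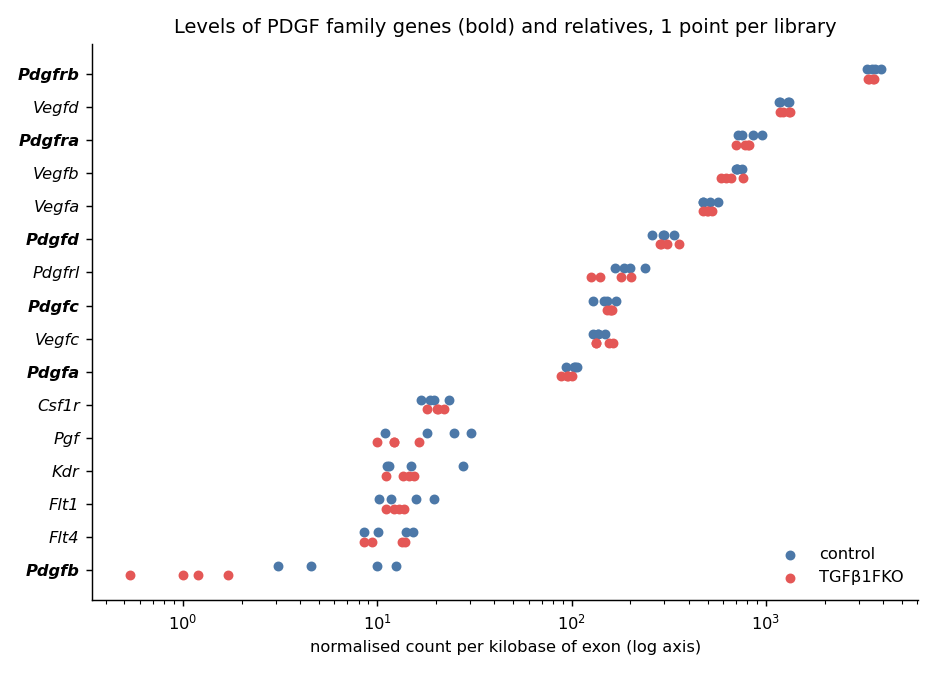
Normalised count per kilobase of exon, on a log axis, for the PDGF genes and their relatives in each library, ordered by the mean over the 8 libraries. *Pdgfrb* is at the top with a mean of 3537, *Pdgfd*, *Pdgfc* and *Pdgfa* lie between 303 and 98.0, and *Pdgfb* is last with 4.32.

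Endothelial cells, megakaryocytes and nerve-associated cells are known sources of PDGF-B, so *Pdgfb* was set beside the markers of other cells that a dermal culture can hold. The summed normalised count of the 7 Schwann cell markers in the table was 724, 848, 1049 and 475 in control libraries 1 to 4. In TGFβ1FKO libraries 1 to 4 the sum was 302, 211, 278 and 250. As for *Pdgfb*, all TGFβ1FKO libraries were below all controls, control library 3 was the highest and control library 4 the lowest control. Of these 7 markers, 3 passed both thresholds, among them *Sox10*, which encodes the defining transcription factor of the lineage, and *Foxd3*. Of all genes, 0.0794% passed both thresholds with a lower level. All 7 markers were lower with unadjusted p-values under 0.05, against 3.87% of all genes. With edgeR 4 of the 7 were called (0.132% of all genes) and with DESeq2 against 0 5 of the 7 (0.371% of all genes).

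For the 12 endothelial markers the summed normalised count ranged from 732 to 1185 in control and from 735 to 794 in TGFβ1FKO libraries, with overlap of the groups. All 12 had a negative log2 fold change, as did 7412 of all 15111 genes. None of the 12 was called in limma, edgeR or DESeq2. An unadjusted p-value under 0.05 was reached by 2 of them, against 3.87% of all genes when only lower genes are counted. These were *Pecam1*, with 50.8 normalised counts in control and 25.4 in TGFβ1FKO fibroblasts, and *Cldn5*, with 20.97 and 10.2. *Cdh5*, which encodes the cadherin of endothelial junctions, had 146 and 97.9, so that defining markers of endothelial cells were present at low levels in both genotypes.

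The sum of 7 mural cell markers ranged from 1683 to 2424 in control and from 1804 to 2474 in TGFβ1FKO libraries. Of these, 0 were called in limma, and *Cspg4* (log2 fold change -0.50) and *Myh11* (0.71) had unadjusted p-values under 0.05, against 7.46% of all genes. *Myh11*, which encodes smooth muscle myosin, was the 1 marker of this list called in edgeR (0.132% of all genes) and in DESeq2 against 0 (0.371% of all genes). All TGFβ1FKO libraries lay above all controls for *Myh11* (adjusted p = 0.0649, limma). Of all genes, 3.79% had no overlap in either direction. The 2 platelet markers in the table summed to between 53.97 and 95.8 over the 8 libraries, and the 4 macrophage markers to between 304 and 558, with 0 called in limma, edgeR or DESeq2 and 0 with an unadjusted p-value under 0.05. *Pf4*, *Gp9* and *Ppbp* of the platelets and *Adgre1*, *Ptprc*, *Itgam* and *Cd163* of the macrophages were not analysed here. The 2 keratinocyte markers summed to between 83.9 and 119, with 0 called by any of the 3 tools. An unadjusted p-value under 0.05 was reached by 1 of them, which was higher in TGFβ1FKO libraries, against 7.46% of all genes in either direction. *Krt5* and *Krt14* were not analysed here.

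The order of the control libraries, which does not involve the genotype, is given as a description. From the lowest to the highest *Pdgfb*, the control libraries stood in the order 4, 1, 2, 3. The same order was found in 5 of 7 Schwann cell markers (*Sox10*, *S100b*, *Erbb3*, *Foxd3* and *Cdh19*) and in 6 of 12 endothelial markers (*Pecam1*, *Cdh5*, *Tie1*, *Emcn*, *Cldn5* and *Erg*). It was found in 1 of 7 mural cell markers, in 0 of 11 fibroblast markers, in 0 of the 66 PDGF pathway genes described below and in none of the other 5 PDGF genes, against 3.85% of all genes. Some matching markers also had few reads, such as *Erg* with 2 to 15 per control library. The summed endothelial markers were highest in control library 2, not in library 3. Genes of a list were read in the same 4 control libraries, so their matches are not independent and only describe these libraries. The part of Schwann cells or endothelial cells in the difference of *Pdgfb* was not tested.

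**Figure D4:**
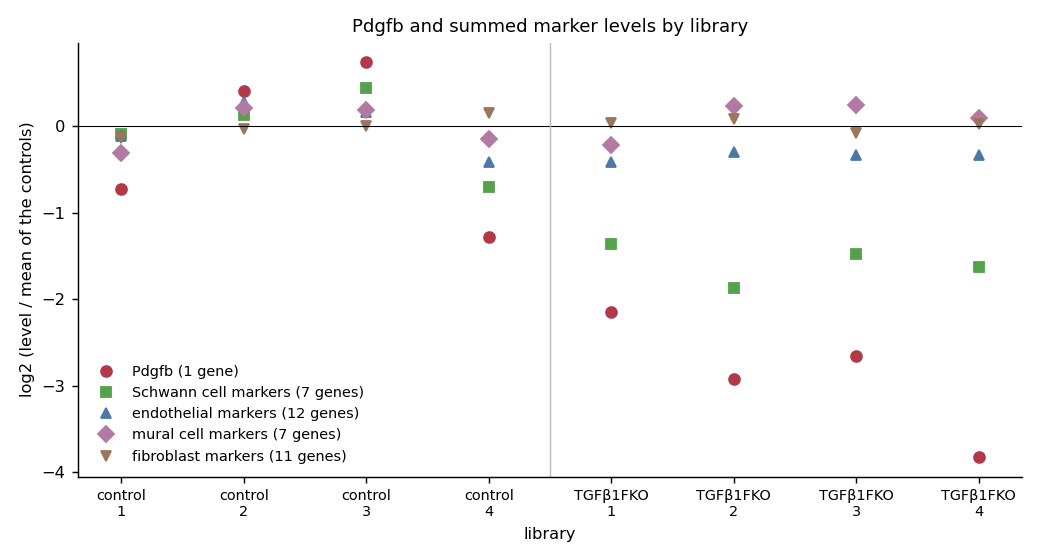
Level of *Pdgfb* and summed levels of markers of Schwann cells, endothelial cells, mural cells and fibroblasts in each library, as log2 of the ratio to the mean of the 4 controls. *Pdgfb*, the Schwann cell markers and the endothelial markers are lowest among controls in library 4 and lie below 0 in all TGFβ1FKO libraries, at -2.14 or lower for *Pdgfb*, at -1.36 or lower for the Schwann cell markers and between -0.41 and -0.30 for the endothelial markers, whereas the fibroblast markers stay between -0.14 and 0.15.

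Over the 8 libraries, the genes whose log2 values were most like those of *Pdgfb* were *Mbd4* (Pearson r = 0.99), *Bcar3* (0.98), *Tnfsf13b* (0.98), *Cadm4* (0.98) and *Itgb8* (0.97), taken from 13857 genes with a mean of at least 10 normalised counts. These r values describe the likeness only, since the genes were picked as the highest and the libraries share genotype and culture. *Cadm4*, which encodes a cell adhesion molecule of myelinating glia, had the largest difference of the 5. Its normalised count was 218, 502, 702 and 147 in control libraries 1 to 4 and 98.3, 51.8, 115 and 48.7 in TGFβ1FKO libraries 1 to 4, without overlap (adjusted p = 0.125, limma). None of the 5 genes was called in limma's test.

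The genes that process PDGFs, carry their signal or respond to it were taken from a list of 66, all of which were in the table. Of these, 33 had a lower and 33 a higher mean log2 value in TGFβ1FKO fibroblasts, and the log2 fold changes ranged from -0.28 to 0.26 with a median of 0.00, as for all genes of the table. None was called in limma, edgeR or DESeq2. An unadjusted p-value under 0.05 was reached by 6 of the 66, 2 lower and 4 higher, against 7.46% of all genes, or 3.87% when only lower genes are counted. The groups did not overlap in 2 of the 66, against 3.79% of all genes.

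Ligand processing was represented by *Furin*, the convertase that cleaves PDGF-A and PDGF-B, by *Plat* and *Plau*, whose proteases activate PDGF-C and PDGF-D, and by *St14*, which encodes matriptase. None of these 4 had an unadjusted p-value under 0.05. *Plat* had the highest mean, with normalised counts of 3592 ± 350.2 (SD, n = 4) for controls against 3500 ± 107 (SD, n = 4) for TGFβ1FKO fibroblasts. *Furin* followed with 2964 ± 129 (SD, n = 4) against 2821 ± 45.3 (SD, n = 4). Among the 3 genes of extracellular binding, *Sparc*, which encodes a matrix protein that binds PDGF-B, had a log2 fold change of -0.01, whereas that of *Lrp1*, an endocytic receptor that associates with PDGFRβ, was 0.18 (limma, adjusted p = 0.774). *Nrp1* was the third of these genes, and none had an unadjusted p-value under 0.05.

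Of 32 genes of the receptor-proximal and kinase signalling steps, 14 had a negative and 18 a positive log2 fold change. *Fyn*, a kinase of the Src family, had normalised counts of 3084, 2905, 3048 and 3193 in control libraries 1 to 4 and of 3438, 3388, 3514 and 3379 in TGFβ1FKO libraries 1 to 4. All TGFβ1FKO libraries lay above all controls, with a log2 fold change of 0.17 and a 95% interval from 0.06 to 0.27 (adjusted p = 0.459, limma). The adaptor gene *Nck2* also had no overlap between the groups (log2 fold change 0.09, adjusted p = 0.753, limma), as did 3.79% of all genes in either direction.

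The 12 negative regulators were divided into 6 with a negative and 6 with a positive log2 fold change. *Cbl*, the ubiquitin ligase that marks activated receptors for degradation, was the 1 gene among them with an unadjusted p-value under 0.05 (log2 fold change 0.20, adjusted p = 0.599, limma). Of all genes, 7.46% had an unadjusted p-value under 0.05 in either direction. Of 15 response genes, *Myc* and the chemokine gene *Ccl7* had unadjusted p-values under 0.05, against the same 7.46% of all genes. Their adjusted p-values in limma were 0.640 and 0.592. *Myc* differed by 0.14 on the log2 scale and *Ccl7* by -0.15. The normalised count of *Ccl7* was 5012 ± 289 (SD, n = 4) for controls and 4522 ± 107 (SD, n = 4) for TGFβ1FKO fibroblasts, and the groups just overlapped. The other 13 response genes, with *Fos*, *Egr1*, *Has2* and *Ccl2* among them, had unadjusted p-values above 0.05.

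**Figure D5:**
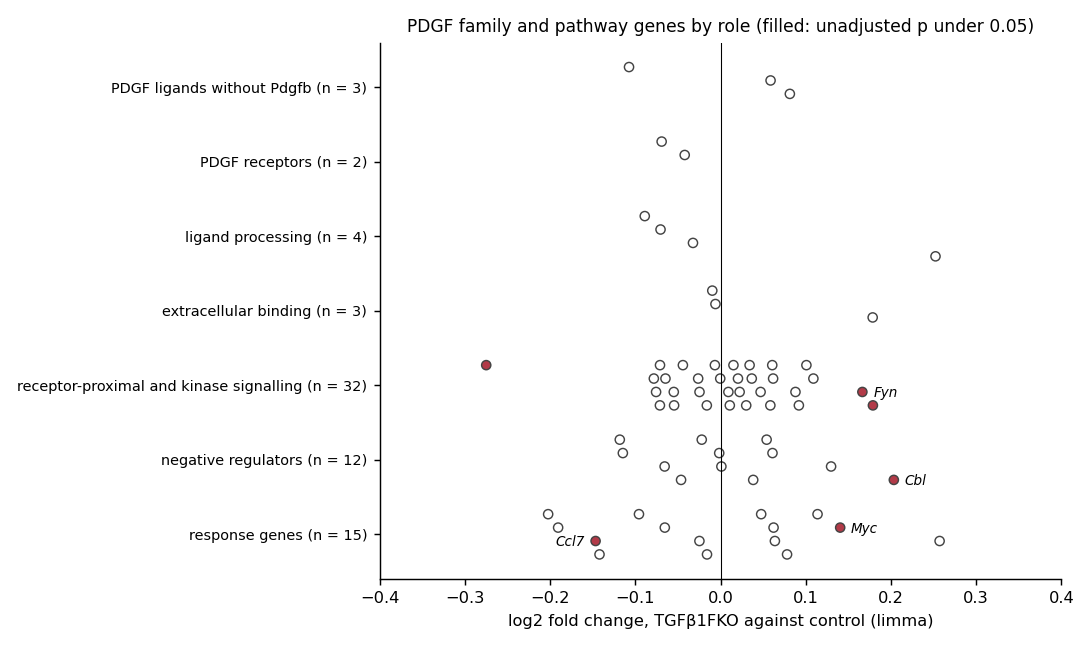
Log2 fold change between TGFβ1FKO and control fibroblasts (limma) of the PDGF genes other than *Pdgfb*, whose value of -2.40 lies outside the axis, and of 66 pathway genes grouped by role, with 1 point per gene, filled points for an unadjusted p-value under 0.05 and labels for those named in the text. All points lie between -0.28 and 0.26, on both sides of 0 in each role of the pathway.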

How the data were processed

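Poly-A RNA of 8 samples was sequenced from libraries without strand information, and samples were grouped by the genotype in the labels. The submitters' processing notes name CASAVA 1.8, HISAT2 2.0.5, featureCounts 1.5.0-p3, R 4.3.2 and DESeq2 1.42.0, with the build GRCm38. The authors deposited 1 normalised count (a signal that is never negative) per gene and library, with 0.5 added. Their table holds only genes above a minimum of reads, the lowest sum over the 8 libraries being 41. The log2 fold changes, standard errors, scores (Wald statistics) and p-values of the authors' own comparison, also deposited, were not used.

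The 0.5 was subtracted, and 100.0% of the values of each library then were whole multiples of 1 read within 1e-05. Values were compared as log2(normalised count + 1) with limma 3.58.1 and a mean-variance trend in R 4.3.3, with Benjamini-Hochberg adjustment over all 15111 genes. This pseudocount of 1 understates the change of low genes such as *Pdgfb*. Single values were compared by two-sided exact permutation tests in scipy 1.17.1. The count tests, edgeR 4.0.16 and DESeq2 1.42.0, were alternatives on the recovered reads. Other alternatives were TMM scaling, a filter at 10 reads per library, 0.5 or 5 as pseudocount, the longest transcript in place of the union of exons, a block for the replicate number, and leaving out single libraries. The limma, edgeR and DESeq2 scripts were tested on simulated data. Changes were simulated only in genes with means well above that of *Pdgfb*, so recovery of a gene with so few reads was not tested. Exon lengths and coordinates are from GENCODE M21, which held 15098 of the genes.

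The genes and lists were chosen with earlier results of these data known. Genes named with values were the 6 PDGF genes, *Tgfb1*, genes overlapping them, the relatives by level, up to 4 genes with the lowest p-value of each pathway role or, where none was under 0.05, the 1 or 2 with the highest mean, defining markers of each list and the 5 genes most like *Pdgfb*. Some genes covered by this rule are left unnamed here. No sequence is shown, and gene ontology enrichment was not repeated.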

Additional observations from a re-analysis of the deposited data

How the results depend on the processing

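The call of *Pdgfb* depended on the test and on 1 library. It was not called in limma's test (adjusted p = 0.103), and it was called with DESeq2's test against a fold change of 0 (log2 fold change -2.74, adjusted p = 0.00049) and without control replicate 4 (-2.74, adjusted p = 0.0294). Under each of these settings 1 of the 6 PDGF genes was called in place of 0. With edgeR the log2 fold change was -2.70 (adjusted p = 0.0903), and DESeq2's test against 0.6 gave an adjusted p of 0.110. Over the alternatives other than left-out libraries its log2 fold change ranged from -2.74 to -1.79, and with each library left out in turn from -2.74 to -2.09 (adjusted p from 0.0294 to 0.393). A minimum of 10 reads in every library left *Pdgfb* out of the test.

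With the replicate number as a block, *Pdgfb* had the same log2 fold change of -2.40 with an adjusted p of 0.0414 (limma), so that 1 of the 6 genes was called, and 31 genes were called in all against 13. The numbers do not pair the libraries by the labels, and same-numbered libraries deviated together with correlations of 0.16, -0.13, 0.05 and 0.16 over 11561 genes. No control library correlated best with the TGFβ1FKO library of its number, whereas TGFβ1FKO libraries 1 and 4 correlated best with the control of theirs. The highest correlation, 0.39, was between control library 4 and TGFβ1FKO library 2.

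The direction of *Pdgfd* turned without control replicate 4 (-0.00526) and without TGFβ1FKO replicate 3 (-0.0123), with a range from -0.0123 to 0.121 over left-out libraries, and that of *Pdgfra* turned without control replicate 4 (0.00666), with a range from -0.133 to 0.00666. The difference of the log2 ratio of *Pdgfra* to *Pdgfrb* turned without the same libraries as that of *Pdgfd* (0.0084 and 0.0122), with a range from -0.0808 to 0.0122. *Pdgfa*, *Pdgfc* and *Pdgfrb* kept their direction and were not called under any alternative. The count of called PDGF genes over left-out libraries was 0 to 1, and that of pathway genes was 0 under all alternatives. The share of *Pdgfb* differed by -1.39 to -0.857 percentage points over left-out libraries, and by -1.33 with the longest transcripts, and *Pdgfb* was the lowest ligand with either length and without length. The number of genes called in the table was 56 with DESeq2 against 0, 20 with edgeR, 3 of 12946 with at least 10 reads, 13 with TMM scaling and 5 to 32 over left-out libraries. The standard error of the log2 fold change was 0.46 for *Pdgfb*, which had few reads, and 0.06 to 0.09 for the other 5 genes. No value of the PDGF genes, of *Tgfb1*, of the share of *Pdgfb* or of the receptor ratio stood apart from its group by Dixon's test of these 18 groups.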
